A study of Mus musculus with 16 samples.

Results

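The genes of 3 growth factor families, the fibroblast growth factors (FGF), platelet-derived growth factors (PDGF) and vascular endothelial growth factors (VEGF), were examined in stromal cells sorted from the bone marrow of sickle mice. Members were taken by gene symbol: the numbered Fgf genes, Fgfr1 to Fgfr4, Fgfrl1, Fgfbp1, Fgfbp3, Pdgfa to Pdgfd and Vegfa to Vegfd. The rule found 37 members among the 52459 genes of the deposited count table. Of these, 30 had at least 1 count in some library, 7 had none, and 20 passed the filter on low counts and were tested. The filter was applied to the counts by genotype, so the 20 tested genes are the better expressed members and not the whole family.

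Townes sickle mice of 2 genotypes were compared, with 4 libraries each. SS mice (hα/hα::βS/βS) carried human sickle beta globin on both alleles together with the human Aγ-globin gene in place of the mouse beta globin genes. SA mice (hα/hα::βA/βS), the controls, had 1 sickle and 1 wild-type human beta globin gene, and both genotypes had the human alpha globin replacement. The SA controls therefore also carried a sickle allele, and no mouse without one was among the samples. The sort took live singlets with CD51 and CD140a on their surface and without CD45, Ter119 or CD31, so that CD140a, the protein of the PDGF receptor gene Pdgfra, was itself part of the gate. No label gives the age, sex or treatment of a mouse. Titles number the mice within a genotype, but nothing else says that they were separate animals, so p-values may reflect only technical spread between libraries.

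FGFs, PDGFs and VEGFs are ligands of receptor tyrosine kinases. Binding dimerises the receptor, which then signals through the RAS-MAPK, PI3 kinase and phospholipase C pathways. FGFs need heparan sulfate chains as co-receptors, and the hormone-like FGFs need klotho proteins. PDGFs act on mesenchymal cells, pericytes and smooth muscle, while VEGFs act mainly on blood and lymphatic endothelium. In bone marrow, stromal cells are known as a source of such factors for vessels, bone-forming cells and blood stem cells.

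Per length of transcript, Vegfc, Fgfr2, Fgf7 and Vegfa were the 4 highest members in these libraries, so their promoters are shown as the sequences of the genes that dominate the family here. Each is the 250 bases before the gene's start in RefSeq (GRCm38.p6), written 5′ to 3′ on the gene's own strand: chr8:54077282-54077531 on the plus strand for Vegfc, chr7:130266809-130267058 on the minus strand for Fgfr2, chr2:126034408-126034657 on the plus strand for Fgf7 and chr17:46032378-46032627 on the minus strand for Vegfa. Capitals mark matches to the GC box GGGCGG or to CCGCCC, the same box on the other strand.
Vegfc: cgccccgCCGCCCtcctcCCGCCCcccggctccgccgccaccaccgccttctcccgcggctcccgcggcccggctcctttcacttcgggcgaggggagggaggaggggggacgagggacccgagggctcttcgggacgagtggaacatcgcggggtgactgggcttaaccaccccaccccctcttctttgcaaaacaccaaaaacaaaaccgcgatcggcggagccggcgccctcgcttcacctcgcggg
Fgfr2: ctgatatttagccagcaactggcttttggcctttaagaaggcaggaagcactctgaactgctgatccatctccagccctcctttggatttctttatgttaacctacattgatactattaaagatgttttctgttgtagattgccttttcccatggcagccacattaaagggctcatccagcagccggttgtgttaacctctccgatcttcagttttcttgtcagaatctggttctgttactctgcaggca
Fgf7: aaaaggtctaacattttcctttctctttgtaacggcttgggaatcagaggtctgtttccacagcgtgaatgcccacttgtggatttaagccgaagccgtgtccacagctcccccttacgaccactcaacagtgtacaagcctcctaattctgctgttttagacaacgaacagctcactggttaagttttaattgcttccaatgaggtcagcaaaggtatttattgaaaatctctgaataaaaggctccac
Vegfa: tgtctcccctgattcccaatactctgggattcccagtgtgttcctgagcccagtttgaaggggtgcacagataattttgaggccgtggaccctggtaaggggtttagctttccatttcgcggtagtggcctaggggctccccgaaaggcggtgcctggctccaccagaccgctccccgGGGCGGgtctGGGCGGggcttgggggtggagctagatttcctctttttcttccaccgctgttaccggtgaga

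The 4 windows differed in composition. GC content was 71.6% with 30 CpG dinucleotides in the Vegfc window and 59.2% with 11 in the Vegfa window, and each of these held 2 GC boxes. The Fgfr2 window had 44.0% GC with 2 CpG, and the Fgf7 window 43.6% with 6 CpG, and neither held a GC box. High level in these cells thus went with CpG-rich and CpG-poor promoter windows alike. Member windows on chromosome 18, where Fgf1 lies, were left out. No window was matched by symbol for Fgf8, Fgf15, Fgf16, Fgf17, Fgf20, Fgfr1 and Pdgfb. Promoter windows of the remaining 29 of the 37 members were used. Among them 17 held a GC box on either strand, against 32.7% of all 32851 windows of this length, with 8 of 17 among tested members and 9 of 12 among untested ones. The core of the hypoxia response element, ACGTG or CACGT, was in 4 of the 29 and in 16.6% of all windows, and none of the 4 printed windows held it. TATAAA or TTTATA was in 4 of the 29 and in 12.4% of all windows. The letters of the hypoxia core, the GC box and the TATA motif do not overlap one another, and CACGTG counts as the core on both strands. A match describes these letters only, and the data hold no measure of binding.

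Library totals ran from 24797857 to 31117007 counts, at which 3 counts correspond to between 0.0967 and 0.113 CPM, the count scaled to a common library total. Pdgfra, part of the gate, was at 169 to 481 CPM. Transcripts of blood cells, which the gate should remove, were present in every library. The summed level of 15 pan-leukocyte genes was 4213, 4740, 1447 and 772 CPM in SA replicates 1 to 4 and 2839, 427, 1168 and 354 CPM in SS replicates 1 to 4, and none of the 15 was at 0 in any library. SA replicates 1 and 2 and SS replicate 1 were thus the 3 leukocyte-rich libraries. SS replicate 2 had 57347 counts of Xist and 12 of the Y-linked Ddx3y, while the other 7 libraries had at most 420 and at least 2282, so that it was the only library that read as female. Date-like numbers in the titles fall into 3 sets, 1 with every SA library and the others with SS libraries, and cannot be told apart from genotype. SS replicate 2 was alone in its set, so that its set and its female reading cannot be told apart. 1 lane of SS replicate 4 is labelled SS in its title and SA elsewhere, and the library was kept in SS.

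The levels of the 20 tested members spanned a wide range and a short group of genes led in every library. On the scale of CPM per kilobase of exon, averaged over the 8 libraries, Vegfc was at 59.4 (21.1 to 86.5), Fgfr2 at 47.05 (21.3 to 70.7), Fgf7 at 38.2 (19.4 to 51.7) and Vegfa at 30.1 (12.3 to 47.3). Fgfr1 came next at 16.6 (5.36 to 25.7). Vegfc drives growth of lymphatic vessels, Vegfa growth of blood vessels, Fgf7 is a mesenchymal factor for epithelial cells, and Fgfr2 and Fgfr1 are FGF receptors with roles in bone formation. Vegfc, Fgfr2, Fgf7 and Vegfa were the 4 highest in 8 of 8 libraries. Neighbours among them were not cleanly ordered: Vegfc was above Fgfr2 in 6 libraries, Fgfr2 above Fgf7 in 6 and Fgf7 above Vegfa in 7. Vegfa was above Fgfr1 in 8 of 8. The order depends on the transcript length. With the longest coding transcript in place of all exons, Fgfr2 led at 109, followed by Vegfc at 59.4, Fgf7 at 46.4, Vegfa at 37.4 and Fgfr1 at 31.8, and the same 4 genes led in 7 of 8 libraries, with Fgfr1 in place of Vegfa in SS replicate 4.

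Below this group, mean levels were 12.5 CPM per kilobase for Pdgfd, 11.5 for Fgfrl1, 9.67 for Pdgfa, 8.48 for Vegfb and 7.84 for Fgfr3. Neighbours in this stretch exchanged places in 2 or 3 of the 8 libraries. Fgf1, Fgf11, Fgf2, Pdgfc, Fgf13 and Vegfd followed between 5.67 and 2.04. Fgfbp3, Fgf23, Fgf14 and Pdgfb were lowest, between 1.31 and 0.466, and each was at 0 or under the level of 3 counts in some library. In bulk libraries such as these, fewer cells of a type and less RNA per cell cannot be told apart.

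**Figure D1:**
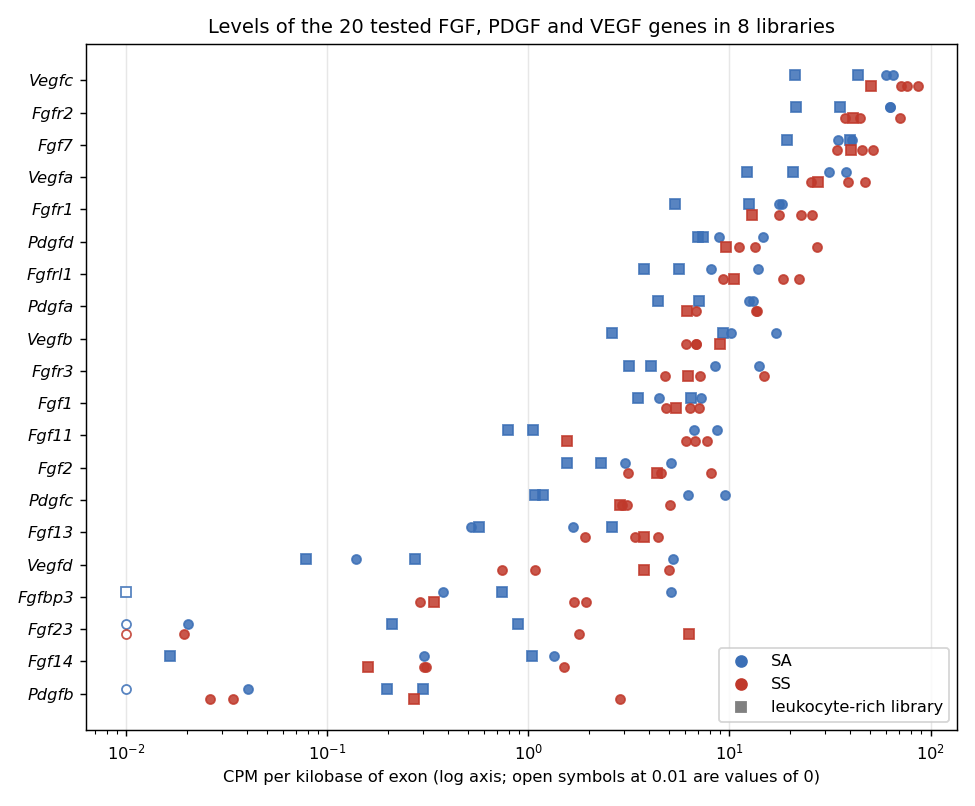
Level of each tested member in each library, in CPM per kilobase of exon on a log axis, with blue for SA, red for SS and squares for the 3 leukocyte-rich libraries. Vegfc, Fgfr2, Fgf7 and Vegfa lie highest, and the squares of SA replicates 1 and 2 lie at the low end for most members.

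No member differed between the genotypes by the test. edgeR's quasi-likelihood test with Benjamini-Hochberg adjustment called 0 of the 20 tested members and 0% of all 17316 genes, and the smallest adjusted p among members was 0.716, for Fgf13. At an unadjusted p under 0.05 there were 0 members in either direction, where 4.03% of all genes were higher in SS and 2.96% were lower. Every SS library lay above every SA library for 0 members against 2.36% of genes, and every SS library lay below for 0 members against 1.55%. DESeq2 called 1.62% of the genes to which it gave an adjusted p, and 0 of 22 members. Without adjustment DESeq2 put 3 of 29 members under 0.05, Fgf13, Fgf18 and Fgfrl1, with DESeq2 adjusted p of 0.320, 0.173 and 0.411. Fgf18 had failed the low-count filter, and 64 of its 83 counts were in SS replicate 2. Of 20 members limma-voom put Fgf13 and Fgfrl1 under 0.05, and its smallest adjusted p among members was 0.603. The share of all genes under 0.05 without adjustment is not given for these tools. With 4 libraries a genotype, the members' 95% intervals were wide, so a change that misses the threshold is not shown to be absent.

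The fitted values leaned to SS in all libraries together. Of the 20 tested members 16 had a higher fitted level in SS, against 49% of all genes, and their median log2 fold change of SS over SA was 0.41, against -0.014 over all genes. Marker lists of mesenchymal cell types did not all lean the same way. Higher in SS were 14 of 16 stromal markers with a median of 0.38, and 12 of 13 pericyte and smooth muscle markers with a median of 0.96. Of the osteoblast and osteocyte markers 3 were higher and 10 lower, with a median of -0.83. Of the cartilage markers 3 were higher and 2 lower, with a median of 0.62. The part of these cell types in the lean of the members was not tested. The lean also moved with the leukocyte transcripts. The median was 0.18 when the pan-leukocyte score, the mean log2 CPM of those 15 genes, entered the fit, with 12 of 20 higher in SS, and it was -0.059 when the 3 leukocyte-rich libraries were left out, with 9 of the 18 members that could still be fitted higher in SS. Leaving out single libraries gave medians from 0.22 without SA replicate 2 to 0.69 without SA replicate 4.

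**Figure D2:**
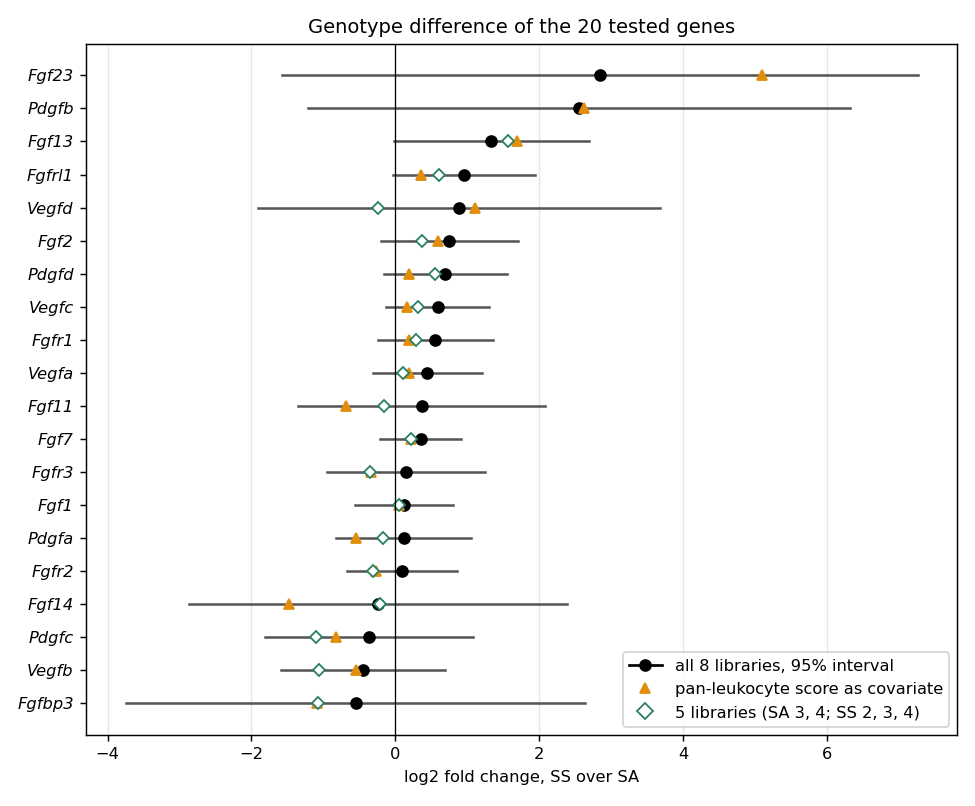
Log2 fold change of SS over SA for the 20 tested members, with black points and 95% intervals for all 8 libraries, orange triangles for the fit with the pan-leukocyte score and green diamonds for the 5 libraries poorer in leukocyte transcripts. Every interval includes 0, and the triangles and diamonds of Fgf11, Fgfr2, Fgfr3 and Pdgfa lie on the other side of 0 from the black points.

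Among the secreted FGF ligands, 3 of 15 were tested. Fgf7 (chromosome 2, 126034658 to 126091185 on GRCm38, plus strand), also known as keratinocyte growth factor, was the highest of them per length. It was at 129, 63.0, 113 and 132 CPM in SA replicates 1 to 4 and at 130, 168, 148 and 111 CPM in SS replicates 1 to 4. SA replicate 2 was the lowest library and SS replicates 2 and 3 were the highest, while the other 5 lay close together across both genotypes. The means were 109 ± 31.8 CPM in SA and 139 ± 24.3 CPM in SS (SD, n = 4), or 0.35 as a log2 fold change (SE 0.26, 95% interval -0.21 to 0.92, adjusted p = 0.789).

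Fgf2, or basic FGF, a mitogen for stromal and endothelial cells that leaves the cell without a signal peptide, was at 10.6, 15.6, 20.4 and 34.7 CPM in SA and at 29.5, 30.9, 55.2 and 21.2 CPM in SS. SS replicate 3 was highest, and SA replicate 4 lay above 3 of the 4 SS libraries. On the log2 scale SS over SA was 0.75 (SE 0.43, interval -0.20 to 1.70, adjusted p = 0.754). Exons of Fgf2 overlap those of Nudt6, and since no source used here gives the strand setting of the counting, their reads cannot be separated. Fgf1, or acidic FGF, a ligand of every FGF receptor, varied least over the 8 libraries, 2.06-fold from the lowest to the highest, with 19.2, 35.3, 24.5 and 39.7 CPM in SA and 29.7, 26.4, 38.4 and 34.7 CPM in SS. The SS libraries lay within the SA range, and the log2 fold change was 0.12 (SE 0.31, interval -0.56 to 0.80).

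The other 12 secreted FGF ligands were at or near 0. Fgf17 had 107 counts over the 8 libraries, with 15 in SA replicate 1, 69 in SA replicate 2 and 23 in SS replicate 1, and 0 in the other 5. Those 3 are the leukocyte-rich libraries. Fgf22 had 92 counts, with 41 in SA replicate 1, 1 in SA replicate 2, 31 in SS replicate 2 and 19 in SS replicate 4. Fgf18, a ligand known from cartilage and bone growth, had 83 counts, with 1 in SA replicate 1 and 64, 7 and 11 in SS replicates 2 to 4. Its counts lay mostly in SS replicate 2, which also had the highest level of cartilage markers. Their sum over 9 genes was 1448 CPM there and 148 to 1139 CPM in the others. SA replicate 3, the next highest at 1139 CPM, had no Fgf18 count. The part of cartilage cells in the Fgf18 counts was not tested. Fgf8 had 18 counts, all in SA replicate 3, and Fgf10 had 11, all in SS replicate 4. Fgf3, Fgf16 and Fgf9 had 12, 7 and 2 counts. Fgf4, Fgf5, Fgf6 and Fgf20 had none, which at a floor of 3 counts allows at most 0.113 CPM in a library.

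Of the endocrine FGFs, which circulate and act through klotho co-receptors, only Fgf23 was tested. Fgf23, the phosphate-regulating hormone of osteoblasts and osteocytes, was at 1.62, 0.38, 0 and 0.037 CPM in SA and at 11.4, 3.26, 0.035 and 0 CPM in SS. SS replicates 1 and 2 were high, and the other SS libraries were under the level of 3 counts, as were SA replicates 3 and 4. The log2 fold change was 2.85 with an SE of 1.999 (interval -1.57 to 7.26, adjusted p = 0.786), with 1.11 when SS replicate 1 was left out and 4.67 when SA replicate 1 was, and it was 5.10 with the pan-leukocyte score. Dmp1, a gene of osteocytes, was at 30.5, 26.4, 135 and 122 CPM in SA and 7.57, 49.6, 14.98 and 60.9 CPM in SS, and the part of bone-lineage cells in the Fgf23 level was not tested. Fgf21 had 4 counts, all in SS replicate 4, and Fgf15 had none. Of the klotho genes, Kl and Klb were not tested because of low counts.

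The FGF homologous factors, Fgf11 to Fgf14, stay inside the cell and are known for binding voltage-gated sodium channels. Fgf13 (X chromosome, 59062145 to 59568071, minus strand) had the smallest p of all members. It was at 2.29, 10.5, 6.69 and 2.10 CPM in SA and at 15.1, 17.8, 13.6 and 7.71 CPM in SS. SS replicates 1 to 3 lay above every SA library, and SS replicate 4 lay below SA replicate 2, so that the genotypes overlapped by that pair. The means were 5.38 ± 3.99 and 13.6 ± 4.28 CPM, and the fold change on the log2 scale was 1.33 (SE 0.61, interval -0.022 to 2.69, unadjusted p = 0.0532, adjusted p = 0.716). The value was 1.06 to 1.88 with single libraries left out, 1.69 with the pan-leukocyte score in the fit and 1.56 without the 3 leukocyte-rich libraries, so that it did not shrink with either. Fgf13 lies on the X chromosome, and the only library that read as female was SS replicate 2, its highest. Without that library its log2 fold change was 1.18.

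Fgf11 separated the 3 leukocyte-rich libraries from the other 5 and did not separate the genotypes. It was at 2.41, 3.20, 26.5 and 20.2 CPM in SA and at 4.72, 23.6, 18.6 and 20.5 CPM in SS. The 3 leukocyte-rich libraries, SA replicates 1 and 2 and SS replicate 1, were at most 4.72 CPM and the other 5 at least 18.6 CPM. Those 3 also had the lowest sums of osteoblast and osteocyte markers, 6774 to 12075 CPM, against 16097 to 33458 CPM in the other 5. Leukocyte and bone-lineage content therefore cannot be told apart in this split. The log2 fold change of Fgf11 was 0.37 (SE 0.78, interval -1.35 to 2.08, adjusted p = 0.954) in all libraries, and -0.16 without those 3. Fgf14 was at 4.36, 0.069, 1.27 and 5.59 CPM in SA and at 0.67, 1.30, 1.27 and 6.29 CPM in SS. SA replicates 1 and 4 and SS replicate 4 were high, and the log2 fold change of -0.24 had an interval of -2.87 to 2.38 and was -1.48 with the pan-leukocyte score. Fgf12 had 11 counts in all.

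Of the FGF receptors, 4 of 5 were tested. Fgfr2 (chromosome 7, 130162451 to 130266808 in RefSeq, minus strand) was at 355, 214, 626 and 629 CPM in SA and at 414, 708, 445 and 378 CPM in SS. SS replicate 2 was highest, SA replicates 3 and 4 came next, and the lowest 2 libraries were SA replicates 1 and 2. The means were 456 ± 206 and 486 ± 151 CPM, or 0.09 as a log2 fold change (SE 0.35, interval -0.67 to 0.86, adjusted p = 0.974). Its value was -0.30 without the 3 leukocyte-rich libraries, and in that set SS replicates 3 and 4 lay below both SA libraries.

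Fgfr1 was at 120, 51.8, 170 and 176 CPM in SA and at 125, 219, 248 and 170 CPM in SS. SS replicates 2 and 3 lay above all others, and the 3 leukocyte-rich libraries lay below all others. On the log2 scale the difference was 0.55 (SE 0.36, interval -0.25 to 1.35, adjusted p = 0.775), 0.18 with the pan-leukocyte score and 0.29 without the 3 leukocyte-rich libraries. The ratio of Fgfr1 to Fgfr2 in CPM, a quantity chosen after the values were seen, was 0.243 to 0.339 in SA and 0.301 to 0.558 in SS. SS replicates 3 and 4 had ratios of 0.558 and 0.450, above every SA library, while SS replicates 1 and 2 lay within the SA range.

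Fgfr3, the receptor that restrains growth plate cartilage, was at 29.1, 22.6, 101 and 60.4 CPM in SA and at 44.8, 106, 50.96 and 34.2 CPM in SS. SA replicate 3 and SS replicate 2 were far above the rest in either genotype. These 2 libraries also had the highest sums of cartilage markers, 1139 and 1448 CPM, and the part of those cells in the Fgfr3 level was not tested. Its log2 fold change was 0.15 (SE 0.50, interval -0.95 to 1.25), with -0.30 when SS replicate 2 was left out and 0.65 when SA replicate 3 was.

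Fgfrl1 encodes a receptor that binds FGFs but lacks the kinase domain. It was at 15.2, 10.2, 37.4 and 21.8 CPM in SA and at 28.7, 50.3, 25.2 and 60.2 CPM in SS. SS replicates 4 and 2 lay above every SA library, and SA replicate 3 lay above the other two SS libraries. The means were 21.2 ± 11.8 and 41.1 ± 16.9 CPM, or 0.96 as a log2 fold change (SE 0.45, interval -0.029 to 1.94, unadjusted p = 0.0560, adjusted p = 0.720), which was 0.36 with the pan-leukocyte score and 0.61 without the 3 leukocyte-rich libraries. Fgfr4, the receptor known from liver and muscle, had no count in any library.

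Of the FGF-binding proteins, which release FGFs from the matrix, Fgfbp1 had no count. Fgfbp3 was at 1.32, 0, 0.67 and 9.09 CPM in SA and at 0.60, 3.01, 3.43 and 0.52 CPM in SS. SA replicate 4 alone was high among the controls, and the log2 fold change of -0.55 (interval -3.74 to 2.64) became 1.51 without it.

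All 4 PDGF ligands were tested, and they differed in how evenly they were expressed. Pdgfd, which acts mainly on PDGF receptor beta after its CUB domain is cleaved off, was at 22.1, 23.4, 46.4 and 28.1 CPM in SA and at 30.5, 86.1, 42.4 and 35.4 CPM in SS. SS replicate 2 was the highest library by a wide margin, and SA replicate 3 lay above the other 3 SS libraries. The means were 30.0 ± 11.2 and 48.6 ± 25.5 CPM, or 0.70 as a log2 fold change (SE 0.39, interval -0.16 to 1.56, adjusted p = 0.752), which was 0.27 without SS replicate 2.

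Pdgfa, the ligand of PDGF receptor alpha, was at 13.8, 22.1, 39.1 and 40.7 CPM in SA and at 19.2, 42.9, 21.3 and 42.1 CPM in SS. In each genotype 2 libraries lay between 39.1 and 42.9 CPM and the others at most 22.1 CPM, and the log2 fold change was 0.12 (SE 0.42, interval -0.82 to 1.06), or -0.55 with the pan-leukocyte score. Pdgfc, like Pdgfd a ligand activated by proteases, was at 5.49, 6.04, 48.3 and 31.6 CPM in SA and at 14.6, 25.7, 14.8 and 15.7 CPM in SS. The SA libraries fell into a low and a high pair on either side of the SS libraries. The high pair, SA replicates 3 and 4, also had the highest sums of osteoblast and osteocyte markers, 33458 and 30449 CPM, against 6774 to 25022 CPM elsewhere, and the part of those cells was not tested. The log2 fold change of Pdgfc was -0.37 (SE 0.65, interval -1.82 to 1.08, adjusted p = 0.934) in all libraries. It was -1.10 without the 3 leukocyte-rich ones, where its unadjusted p was under 0.05 and its adjusted p was 0.753.

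Pdgfb, the ligand by which endothelium and platelets act on pericytes, was at 0.83, 1.25, 0.17 and 0 CPM in SA and at 1.13, 0.11, 0.14 and 11.9 CPM in SS. SS replicate 4 alone stood out, and the log2 fold change of 2.56 (SE 1.71, interval -1.21 to 6.32, adjusted p = 0.777) was -0.28 without it. SS replicate 4 also had the highest sum of 13 pericyte and smooth muscle markers. That sum was 7560 CPM, against 2125 to 2641 in the other SS libraries and 1114 to 1536 in SA. Rgs5 alone made up most of it, at 4998 CPM against 192 to 1088. Endothelial markers summed to 87.7 CPM in SS replicate 4, against 75.1 to 291 elsewhere. Megakaryocyte and platelet markers summed to 39.8 CPM in it, against 6.54 to 11.3 in the other SS libraries and 6.70 to 393 in SA. The pericyte and smooth muscle sum was above every SA library in all 4 SS libraries. The part of any of these cell types in the Pdgfb level was not tested.

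The 4 VEGF ligands were all tested. Vegfc (chromosome 8, 54077606 to 54187096, plus strand) was at 107, 51.6, 147 and 159 CPM in SA and at 124, 212, 175 and 187 CPM in SS. SS replicates 2, 3 and 4 lay above every SA library, and SS replicate 1 lay below SA replicates 3 and 4. The means were 116 ± 48.5 and 175 ± 36.9 CPM, or 0.59 as a log2 fold change (SE 0.33, interval -0.13 to 1.31, adjusted p = 0.752). It was 0.17 with the pan-leukocyte score and 0.32 without the 3 leukocyte-rich libraries. Within the remaining 5 libraries the 3 SS values still lay above the 2 SA values.

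Vegfa (chromosome 17, 46016993 to 46032369, minus strand) was at 88.4, 52.5, 134 and 162 CPM in SA and at 118, 166, 203 and 109 CPM in SS. SS replicates 3 and 2 were highest, SA replicates 2 and 1 lowest, and SA replicates 3 and 4 lay between the lower and the higher pair of SS libraries. Its log2 fold change was 0.45 (SE 0.34, interval -0.31 to 1.21, adjusted p = 0.803), 0.19 with the pan-leukocyte score and 0.10 without the 3 leukocyte-rich libraries. The ratio of Vegfc to Vegfa in CPM, chosen after the values were seen, was 0.983 to 1.21 in SA and 0.863 to 1.72 in SS, with both the lowest and the highest value in SS.

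Vegfb, a ligand of VEGF receptor 1 with a role in fatty acid uptake by endothelium, was the only VEGF with a lower fitted level in SS. It was at 14.9, 4.17, 27.4 and 16.4 CPM in SA and at 14.3, 10.9, 10.9 and 9.80 CPM in SS. The SS libraries lay close together inside the range of the SA libraries, 3 of which lay above all SS values. The log2 fold change was -0.45 (SE 0.52, interval -1.59 to 0.69, adjusted p = 0.883), with -1.06 without the 3 leukocyte-rich libraries and -0.042 without SA replicate 3. Vegfd, a lymphatic ligand like Vegfc, was at 0.19, 0.66, 0.33 and 12.6 CPM in SA and at 9.02, 1.77, 12.0 and 2.61 CPM in SS. All SS libraries lay above SA replicates 1 to 3, and SA replicate 4 lay above all SS libraries. Its log2 fold change was 0.88 (SE 1.26, interval -1.91 to 3.68, adjusted p = 0.916) and 3.996 without SA replicate 4, where the adjusted p was 0.427.

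The low end of most members was held by the same libraries. SA replicate 2 was the lowest library for 10 of the 20 tested members and SA replicate 1 for 7, and the only SS library to share a lowest value was SS replicate 4, which tied with SA replicate 3 at 0 for Fgf23. SS replicate 2 was the highest for 7. The 3 leukocyte-rich libraries together lay below the other 5 for 4 members, Fgf11, Fgfr1, Pdgfc and Vegfc. For the other 16 the leukocyte-rich libraries and the rest overlapped. How often genes at large take these orders was not computed, so these counts are not shown to be a trait of the family. Set against the stromal gene Pdgfra of the same library, the spread of Fgfr2 and Vegfc in SA narrowed. Fgfr2, which ranged from 214 to 629 CPM in SA, was 1.27 to 1.402 times Pdgfra in CPM in each SA library, and 0.837 to 1.66 times in SS. Vegfc was 0.306 to 0.413 times Pdgfra in SA and 0.364 to 0.496 times in SS. Fgf7, at 0.237 to 0.495 times Pdgfra in SA, did not narrow, and Fgf13, at 0.00467 to 0.0620 times, spread more widely than its CPM. These ratios were chosen after the values were seen and are given as a description, and Pdgfra was part of the gate. The part of leukocyte RNA in the genotype differences was not tested apart from the fits given above.

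**Figure D3:**
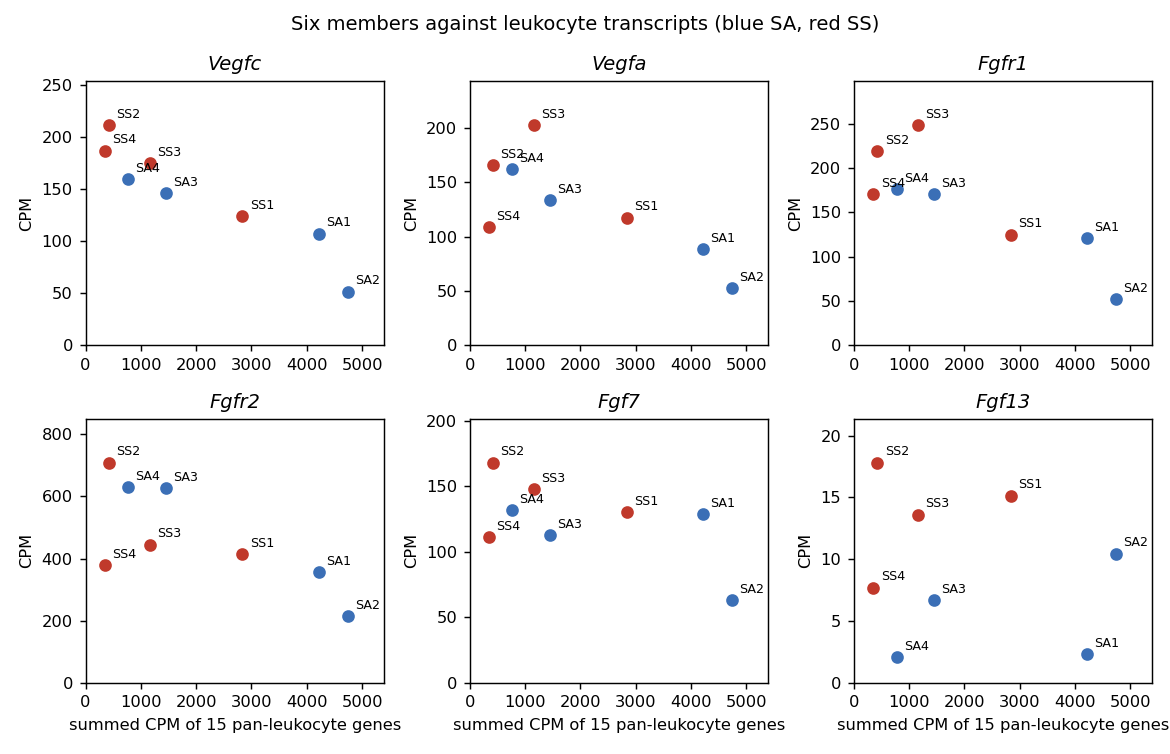
CPM of Vegfc, Vegfa, Fgfr1, Fgfr2, Fgf7 and Fgf13 in each library against the summed CPM of 15 pan-leukocyte genes, blue for SA and red for SS. Vegfc and Fgfr1 are lower in SA replicates 1 and 2 and SS replicate 1, which have the most leukocyte transcript, than in the other 5 libraries, and Fgf13 is not.

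In 5 of the 40 sets of 4 values (20 members in 2 genotypes), a single library stood far from the other 3. They were Pdgfb and Fgf14 in SS replicate 4, Pdgfc in SS replicate 2, and Vegfd and Fgfbp3 in SA replicate 4. Apart from Pdgfc these are members of low level. Most of their fold changes depended on that library, as given above for Pdgfb, Vegfd and Fgfbp3, while Fgf14 went from -0.24 to -1.38 without SS replicate 4.

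**Figure D4:**
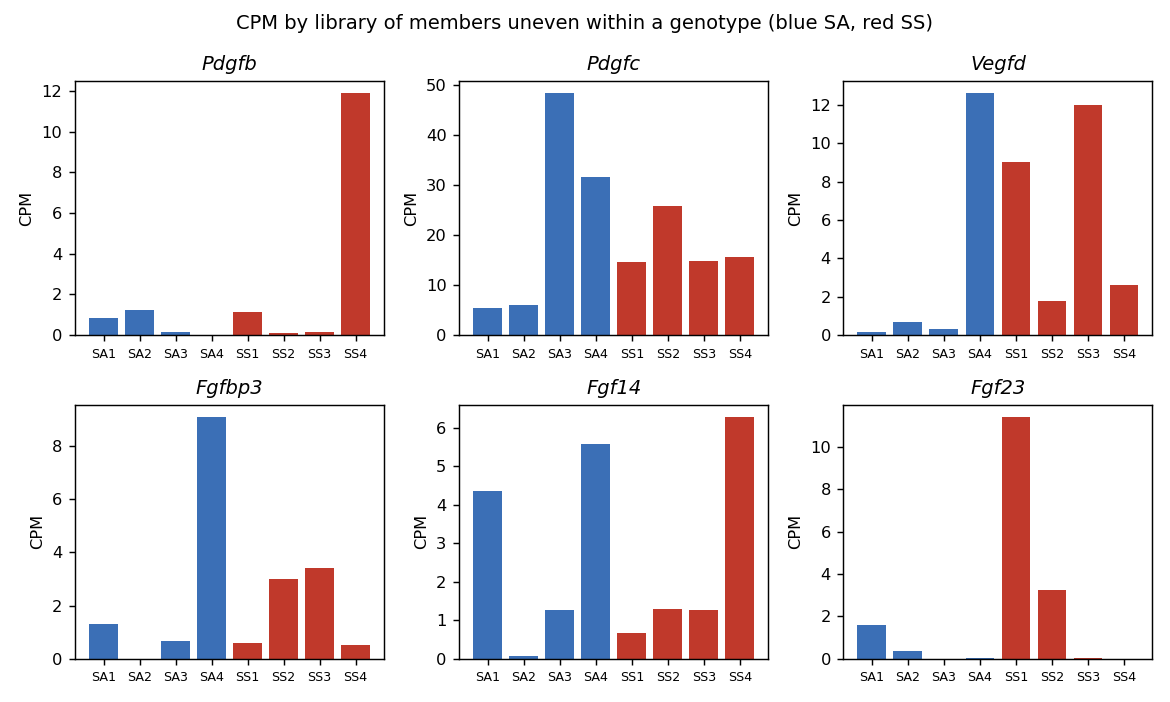
CPM per library of 6 members with uneven values within a genotype, each bar 1 library, blue for SA and red for SS. Pdgfb is high in SS replicate 4 alone at 11.9 CPM, Vegfd and Fgfbp3 are high in SA replicate 4 among the controls, Pdgfc is high in SA replicates 3 and 4, and Fgf23 is high in SS replicates 1 and 2.

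The receptors and co-receptors outside the family numbered 11, of which 9 were tested and 0 were called. Fitted levels were higher in SS for 7 and lower for 2, with a median log2 fold change of 0.46, which was 0.29 with the pan-leukocyte score and 0.23 without the 3 leukocyte-rich libraries. Pdgfrb, the receptor of Pdgfb and Pdgfd, was at 409, 303, 593 and 677 CPM in SA and at 634, 721, 743 and 810 CPM in SS. SS replicates 2 to 4 lay above every SA library and SS replicate 1 below SA replicate 4. The log2 fold change was 0.55 (SE 0.25, adjusted p = 0.716). Pdgfrb is itself 1 of the 13 pericyte and smooth muscle markers, whose summed level was higher in every SS library than in every SA library. Pdgfra had a log2 fold change of 0.32 (SE 0.31), with SA at 260, 169, 476 and 449 CPM and SS at 331, 427, 481 and 451 CPM, and was at -0.0032 with the pan-leukocyte score.

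The VEGF receptors reached at most 36.8 CPM, in a sort of cells negative for CD31. Kdr, VEGF receptor 2 of blood endothelium, was at 18.1, 9.03, 0.033 and 0.70 CPM in SA and at 21.2, 0.15, 0.035 and 0.16 CPM in SS. Flt1, VEGF receptor 1, was at 3.50, 6.18, 0.20 and 0.41 CPM in SA and at 15.04, 1.38, 0.60 and 0.16 CPM in SS. Both were highest in the 3 leukocyte-rich libraries, of which SS replicate 1 also had the highest endothelial marker sum, 291 CPM. Flt4, the receptor of Vegfc and Vegfd, had a log2 fold change of 1.25 (SE 0.73) with 36.8 CPM in SS replicate 1, 0.55 without that library and 2.56 with the pan-leukocyte score. The neuropilins, co-receptors of VEGF, were well expressed: Nrp1 had a log2 fold change of 0.46 (SE 0.28) and Nrp2 of 0.0050 (SE 0.39). Pgf, placental growth factor, was at -0.49 (SE 0.51), and Pdgfrl, a PDGF receptor-like gene, at 1.24 (SE 0.87).

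Heparan sulfate proteoglycans and the enzymes that build their chains, the co-receptors of FGFs, numbered 24 tested genes of 30. None was called, 20 had a higher fitted level in SS and 4 a lower one, and 8 were higher at an unadjusted p under 0.05, against 4.03% of all genes. The median log2 fold change was 0.39, and it was 0.36 with the pan-leukocyte score and 0.38 without the 3 leukocyte-rich libraries, so that it moved less than the family's own median. In 2 of them, Gpc6 and Ext2, every SS library lay above every SA library, against 2.36% of all genes. Gpc6, a glypican on the cell surface, was at 257, 167, 295 and 314 CPM in SA and at 434, 384, 366 and 403 CPM in SS, and its log2 fold change was 0.62 with an SE of 0.22 (adjusted p = 0.695). Ext2, a polymerase of heparan sulfate chains, was at 57.6, 31.7, 77.4 and 67.5 CPM in SA and at 92.1, 104, 103 and 309 CPM in SS. Its log2 fold change of 1.38 (SE 0.43, adjusted p = 0.680) was 0.77 without SS replicate 4. Hspg2, or perlecan, had 0.88 (SE 0.26, adjusted p = 0.628).

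Of the proteases that process these ligands or free them from matrix, 11 of 12 were tested, with 7 higher and 4 lower in SS, 0 called and a median of 0.37, which was 0.17 with the pan-leukocyte score and 6.19e-07 without the 3 leukocyte-rich libraries. At an unadjusted p under 0.05, 2 of the 11 were higher, Mmp2 and Adamts1, against 4.03% of all genes, and 0 were lower, against 2.96%. On the log2 scale Mmp2 differed by 1.45 (SE 0.40, adjusted p = 0.604), Adamts1 by 0.68 (SE 0.24, adjusted p = 0.695) and Mmp9, a gene also expressed by neutrophils, by -1.09 (SE 0.58, adjusted p = 0.747). With the pan-leukocyte score Mmp2 was at 0.68 and Mmp9 at -0.022. The 29 genes that relay the signal inside the cell lay around 0, with 14 higher, 15 lower and a median of -0.031, or -0.054 with the pan-leukocyte score and -0.070 without the 3 leukocyte-rich libraries. Among those with the smallest p, Grb2, an adaptor that links receptors to downstream signalling, was at -0.74 (SE 0.36) and Plcg2, a phospholipase of blood cells, at -1.38 (SE 0.74), and with the pan-leukocyte score these were -0.60 and -0.14.

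Feedback and target genes, which report on receptor tyrosine kinase signalling, gave 29 tested genes, with 18 higher and 11 lower in SS, 0 called and a median of 0.19, which was 0.076 with the pan-leukocyte score and 0.097 without the 3 leukocyte-rich libraries. At an unadjusted p under 0.05, 3 of the 29 were higher, against 4.03% of all genes, and 0 were lower, against 2.96%. In 2 of them, Etv5 and Lrig3, the genotypes did not overlap, against 2.36% of all genes. Etv5, a transcription factor induced by FGF signalling, was at 6.47, 8.86, 8.03 and 8.32 CPM in SA and at 10.9, 24.1, 15.7 and 15.3 CPM in SS, and its log2 fold change was 1.06 (SE 0.40, adjusted p = 0.695). Lrig3 had a difference of 0.999 (SE 0.37) on the same scale with SS replicate 4 highest, and Flrt2, an FGF receptor-binding membrane protein, had 1.15 (SE 0.37), or 0.49 with the pan-leukocyte score. Other targets of the same pathway, named after their values were seen, lay near 0: Dusp6 had a log2 fold change of 0.068 (SE 0.46), Spry2 -0.19 (SE 0.53) and Egr1 -0.058 (SE 0.31), while Spry4 had 0.78 (SE 0.55).

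**Figure D5:**
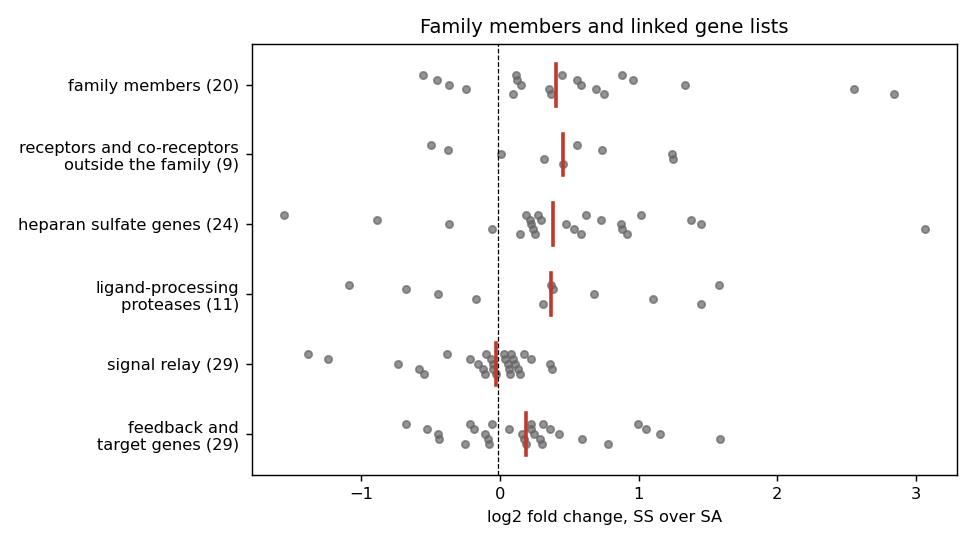
Log2 fold change of SS over SA for each tested gene of the family and of 5 linked lists, with a red line at each median and a dashed line at the median of all genes tested. The medians are 0.41 for the family, 0.46 for receptors outside it, 0.39 for heparan sulfate genes, 0.37 for proteases, -0.031 for the signal relay and 0.19 for feedback and target genes.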

How the data were processed

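RNA of sorted marrow stromal cells was sequenced as 8 libraries on 2 lanes each. The deposited table has 1 column per library, each numbered in the titles as a mouse, and n was taken as 4 per genotype. The values are raw read counts per gene symbol that the authors deposited. Per the submitters' processing notes, the tools were bcl2fastq, STAR, featureCounts and DESeq2, on build mm10 or GRCm38. No source used here gives tool versions, annotation or strand setting, so that overlapping genes cannot be separated (Fgf2, Fgf14, Fgfr1, Fgfr3, Pdgfa and Pdgfc share exon bases with another gene).

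From the counts, edgeR 4.0.16 in R 4.3.3 was run over all genes (filterByExpr by genotype, TMM factors, robust quasi-likelihood F test, Benjamini-Hochberg adjustment over 17316 genes, threshold 0.05). Any adjusted p without a named tool comes from this test, the fold change is log2 of SS over SA, and SE is the fold change over the root of F. CPM used TMM-adjusted totals. CPM per kilobase divided this by the union of GENCODE M21 exons within the RefSeq gene span. Floors of 3 counts reflect counting error alone, because no molecular identifiers are named. DESeq2 1.42.0 and limma 3.58.1 (voom) were alternatives, beside other scaling, other filters, a replicate block, a leukocyte covariate and libraries left out. The script was tested on simulated counts.

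Named are all tested members, untested ones with at least 20 counts, every tested receptor outside the family, and in each other list up to 3 genes of smallest p, of which 1 is not reported here. The remaining members and the genes said to be named after their values are exceptions. Further exceptions are Dmp1 and Rgs5, single genes of the marker lists, and Xist, Ddx3y, Nudt6, Kl and Klb. The members and the lists were chosen with earlier results of these data known.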

Additional observations from a re-analysis of the deposited data

Results flagged for a closer look

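In 5 of 40 sets of 4 values, 1 library lay farther from the other 3 than Dixon's criterion for 4 values allows. By chance the criterion flags about 1 in 20 sets of independent, normally distributed values. The sets here share libraries and hold CPM that were not transformed, so 5 of 40 cannot be set against that rate. For Pdgfb the library that stood apart was SS replicate 4 at 11.9 CPM, where SS replicates 1 to 3 had 0.11 to 1.13 CPM. Fgf14 was at 6.29 CPM in the same library, against 0.67 to 1.30 CPM. Vegfd was at 12.6 CPM in SA replicate 4 against 0.19 to 0.66 CPM in the other controls, and Fgfbp3 at 9.09 CPM in that library against 0 to 1.32 CPM. Pdgfc was at 25.7 CPM in SS replicate 2 where the rest of SS had 14.6 to 15.7 CPM. What set these libraries apart was not tested.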

How the results depend on the processing

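The count of members called was 0 under every alternative run. Over all genes, DESeq2 called 315 and edgeR without a low-count filter 5, against 0, and leaving out single libraries gave 0 to 1 (1 without SS replicate 1). The members' median was -0.059 without the 3 leukocyte-rich libraries, and with single libraries left out it was 0.22 to 0.69. With the replicate block 0 genes were called and the median was 0.57. Same-numbered libraries correlated at 0.222, -0.15, -0.020 and 0.143 in their deviations, and only SS replicates 1 and 4 correlated best with their own number, so the numbers were not taken to pair the mice. Of the 44 genes that the naming rule selects, 15 changed direction somewhere. With the leukocyte covariate these were Fgf11 (-0.69), Fgfr2 (-0.27), Fgfr3 (-0.34), Pdgfa (-0.55), Pdgfra (-0.0032), Nrp2 (-0.39), Kdr (1.32) and Ptprc (0.22). Without the 3 leukocyte-rich libraries they were Fgf11 (-0.16), Fgfr2 (-0.30), Fgfr3 (-0.35), Pdgfa (-0.17), Vegfd (-0.24), Pdgfra (-0.031) and Nrp2 (-0.45). With voom and the block in turn they were Fgf14 (0.43, 0.20), Fgfbp3 (1.16, 0.69) and Pdgfc (0.17, 0.19), and Nrp2 was at -0.0036 with DESeq2 and -0.0024 with relative log expression factors. Leave-one-out ranges that cross 0 were -0.046 to 0.30 (Fgf1), -1.38 to 0.33 (Fgf14), -1.01 to 1.51 (Fgfbp3), -0.15 to 0.29 (Fgfr2), -0.30 to 0.65 (Fgfr3), -0.12 to 0.33 (Pdgfa), -0.28 to 3.31 (Pdgfb), -0.70 to 0.30 (Pdgfc), -1.84 to 1.65 (Flt1), -5.88 to 0.72 (Kdr) and -0.24 to 0.29 (Nrp2). The cause was not tested. Taking the longest coding transcript as the length, an alternative chosen after seeing the data, moved the level per kilobase of Fgfr2 from 47.05 to 109 and Fgfr1 from 16.6 to 31.8.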
